A study of Homo sapiens with 12 samples.

Results

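The replication fork and nucleotide supply genes are 44 genes whose products fire origins, copy DNA at the fork, load and hold the sliding clamp, coat single-stranded DNA, join Okazaki fragments, stabilise the fork, place histones on new DNA and make deoxynucleotides. They were chosen by symbol for their known roles at the fork, with earlier results of these data known, and the MCM helicase ring and the origin recognition complex were left to one side. All 44 had a row in the table of 63568 genes, and all 44 passed the filter on low values that left 16337 genes for testing. RNA came from LNCaP cells, an androgen-sensitive prostate cancer line from a lymph node metastasis. Cells received a non-targeting siRNA pool (si-NT) or either of 2 siRNAs against SMARCA4, which encodes BRG1, the ATPase of the SWI/SNF chromatin remodelling complex. RNA was taken 72 h after transfection, or at 144 h after a split and a further transfection at 72 h. There were 2 si-NT and 4 BRG1 depleted libraries at each time point, with 2 libraries per siRNA, and 12 libraries in all. The siRNAs are called number 2 and number 3, as in the deposited table. The sample titles number them differently, and which number is which was not given. Nothing in the labels says that the 2 libraries of an arm came from separate cultures, so p-values measure the spread between these libraries, which may be technical.

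DNA replication starts when CDC7 kinase and its partner DBF4, with loading factors such as TICRR, TOPBP1, RECQL4 and MCM10, turn the loaded MCM ring and the GINS complex into a moving helicase. Polymerase alpha and primase lay down primers, polymerases epsilon and delta extend them, and PCNA, loaded by the RFC complex, holds the polymerases on DNA. Many of these genes are transcribed by E2F factors as cells pass from G1 into S phase, and their RNA is low in resting cells. Other subunits of the same complexes are made at steady levels. On that basis 36 genes were classed as growth-regulated and 6 as constitutive (GINS3, PRIM2, POLD2, RFC1, RPA1 and RPA3), and 2 (MCM8 and TOPBP1) were put in neither class.

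The targeted gene was lower in every depleted library. SMARCA4 was between 73.44 and 106.59 TPM (a gene's length-corrected share of the transcripts of a library) in the 4 si-NT libraries and between 11.42 and 21.7 TPM in the 8 depleted libraries. The luminal prostate marker KLK3 was between 241.17 and 841.47 TPM in the 12 libraries, whereas no basal, stromal or leukocyte marker (TP63, KRT5, KRT14, DCN, COL1A2, PTPRC) was above 0.33 TPM in any library. The table holds no read numbers, so how deeply each library was sequenced is unknown.

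The si-NT library of replicate 2 at 72 h stood apart from the other 3 si-NT libraries. It held the lowest si-NT value for 43 of the 44 genes, and for 26 of them it was also below every depleted library of its time point. Its summed TPM over the 44 genes was 1614, against 2343, 2318 and 2498 in the other si-NT libraries. Its 5 cycling cell markers (MKI67, TOP2A, CCNA2, CCNB1 and CDK1) summed to 397 TPM, against 709 to 836 TPM in the other si-NT libraries. The main 72 h results are therefore also given without this library. Among the depleted libraries of 72 h, that of siRNA number 2, replicate 2, was low too. Its summed TPM over the 44 genes was 1423, against 1729 to 1864 in the other depleted libraries of 72 h.

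**Figure D1:**
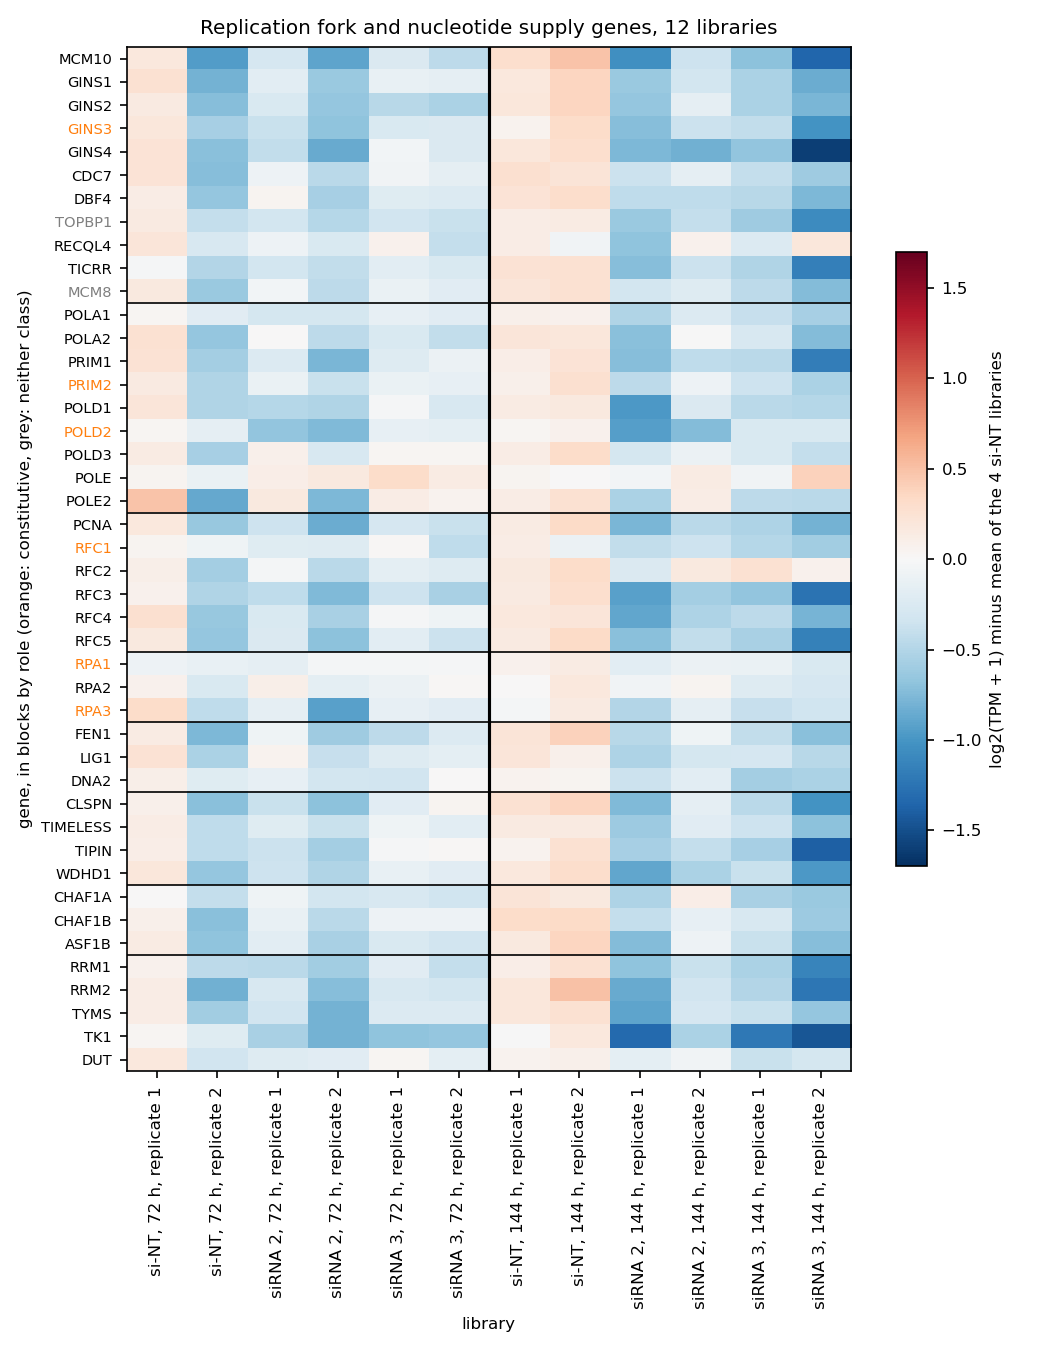
Heat map of the 44 genes (rows, in blocks by role) in the 12 libraries (columns), as log2(TPM + 1) minus the mean of the 4 si-NT libraries of the same gene. The si-NT column of replicate 2 at 72 h is blue in every row, and in the 144 h columns most rows are blue in the depleted libraries, with POLE and RFC2 among the exceptions.

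Promoter sequence was not used in the choice of genes, and some letters were more frequent in their promoters than in those of all genes. RefSeq windows from 250 bases before to 50 bases after a start (GRCh38.p14) were given for 38 of the 44 genes. Letters of the E2F site (TTTCCCGC, TTTCGCGC, TTTGCCGC or TTTGGCGC, on either strand) were found in a window of 17 of these 38 genes (44.7%), against 3.99% of the 27305 genes with a window. The share was 45.2% of the 31 growth-regulated genes with a window, and among the 5 constitutive genes with a window only GINS3 held the letters. Known transcription by E2F factors was part of the basis of the classes, so this contrast is not independent of them. The CCAAT box (CCAAT, either strand) was in 55.3% of the 38 genes and 39.7% of all genes. The GC box (GGGCGG) was in 84.2% and 48.3%, and the CHR element (TTTGAA) in 10.5% and 18.2%. Windows were not matched for base composition, and a match of letters is a description, not a shown binding site. The genes with a window were not limited to those tested, whereas all 44 genes passed the filter on low values.

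The windows of MCM10 and TK1, the growth-regulated genes with the lowest log2 fold changes at 144 h, and of RFC1, the constitutive large subunit of the clamp loader, are shown to set the genes that fell furthest beside a constitutive partner. GINS4, the next lowest, had no entry. RFC3, CLSPN and TIPIN are the growth-regulated genes with E2F letters and the lowest log2 fold changes, and were added after their values were seen. Capitals mark matches to the E2F letters or to the CCAAT box on either strand, and each sequence runs 5′ to 3′ on the strand of its gene.
MCM10: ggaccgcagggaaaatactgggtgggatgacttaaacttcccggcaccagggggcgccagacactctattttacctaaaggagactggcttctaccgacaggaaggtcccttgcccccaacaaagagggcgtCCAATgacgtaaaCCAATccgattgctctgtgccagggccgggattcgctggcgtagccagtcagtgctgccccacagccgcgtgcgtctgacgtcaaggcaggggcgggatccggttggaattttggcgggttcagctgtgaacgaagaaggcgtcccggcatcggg
TK1: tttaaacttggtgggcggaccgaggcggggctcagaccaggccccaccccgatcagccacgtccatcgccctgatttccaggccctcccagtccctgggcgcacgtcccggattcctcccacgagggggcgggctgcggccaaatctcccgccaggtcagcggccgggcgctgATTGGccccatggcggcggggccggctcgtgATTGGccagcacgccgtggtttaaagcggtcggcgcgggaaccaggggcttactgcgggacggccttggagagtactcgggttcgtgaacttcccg
RFC1: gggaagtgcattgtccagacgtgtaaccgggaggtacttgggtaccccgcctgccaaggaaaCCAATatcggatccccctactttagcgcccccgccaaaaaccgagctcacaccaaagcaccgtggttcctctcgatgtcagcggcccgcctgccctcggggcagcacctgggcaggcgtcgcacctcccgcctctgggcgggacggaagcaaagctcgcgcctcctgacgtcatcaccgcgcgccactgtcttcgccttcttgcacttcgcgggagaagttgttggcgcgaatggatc
RFC3: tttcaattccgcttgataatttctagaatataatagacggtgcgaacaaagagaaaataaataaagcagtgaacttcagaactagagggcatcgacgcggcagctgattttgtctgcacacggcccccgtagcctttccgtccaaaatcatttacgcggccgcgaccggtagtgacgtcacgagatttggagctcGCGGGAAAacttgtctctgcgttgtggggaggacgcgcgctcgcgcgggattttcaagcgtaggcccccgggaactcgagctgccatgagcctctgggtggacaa
CLSPN: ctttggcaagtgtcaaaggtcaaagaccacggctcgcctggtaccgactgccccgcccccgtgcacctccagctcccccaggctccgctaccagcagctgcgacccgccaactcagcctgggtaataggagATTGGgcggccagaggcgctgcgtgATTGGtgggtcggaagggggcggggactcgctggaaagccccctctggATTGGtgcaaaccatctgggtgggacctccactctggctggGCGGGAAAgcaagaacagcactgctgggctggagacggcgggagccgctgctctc
TIPIN: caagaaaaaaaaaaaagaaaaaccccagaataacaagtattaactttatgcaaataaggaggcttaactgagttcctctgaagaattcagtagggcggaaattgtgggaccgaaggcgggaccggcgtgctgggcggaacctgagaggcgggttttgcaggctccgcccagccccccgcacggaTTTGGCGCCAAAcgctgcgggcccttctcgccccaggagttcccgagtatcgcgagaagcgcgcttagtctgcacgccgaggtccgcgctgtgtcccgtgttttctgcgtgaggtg
The TK1 and TIPIN windows are 1 of 2 for each gene. The windows lie in GRCh38.p14 at chr10:13161308-13161607 (plus strand), chr17:78187003-78187302 (minus strand), chr4:39366313-39366612 (minus strand), chr13:33817899-33818198 (plus strand), chr1:35769929-35770228 (minus strand) and chr15:66356636-66356935 (minus strand), in the same order. MCM10, TK1 and RFC1 had CCAAT boxes and no E2F letters in the window shown, RFC3 and TIPIN had E2F letters alone, and CLSPN had both. Only exact matches were counted, so genes without the letters may hold close variants. The MCM10 window holds tttggcgg, which differs from TTTGGCGC in the last letter. Genes with E2F letters did not stand apart in their change at 144 h: the median log2 fold change was -0.78 over the 17 genes with the letters and -0.75 over the 21 without. Of the 29 genes with a window that were called lower at 144 h, 11 held E2F letters and 19 a CCAAT box, and of the 9 that were not called, 6 and 2 did. The other fork and nucleotide genes described at the end held E2F letters in 7 of 31 (22.6%).

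At 72 h, with the siRNAs pooled, none of the 44 genes passed the test in either direction, while 0.557% of all genes tested were called lower and 1.13% higher in depleted cells (limma, Benjamini-Hochberg adjusted p under 0.05 over all 16337 genes). At an unadjusted p under 0.05, 1 gene was lower and 0 were higher, with no share of all genes given for that limit. The median log2 fold change of the 44 genes was -0.06, beside 0.06 over all genes tested. Without si-NT replicate 2 the median was -0.47 and again no gene was called, with 0.0918% of all genes called lower. Without si-NT replicate 1 instead it was 0.24, so the sign of the 72 h change depended on which si-NT library was kept. Leaving out the siRNA number 2 library of replicate 2 of 72 h gave a median of 0.0, with 22 of the 44 genes negative.

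TK1 (GRCh37 chr17:76170172-76183314, minus strand), the thymidine kinase that salvages thymidine in S phase, came closest to passing. It was at 267.06 and 225.06 TPM in the si-NT libraries of 72 h and at 177.12 and 148.87 TPM with siRNA number 2 and 161.56 and 165.05 TPM with siRNA number 3. No depleted library reached either si-NT value, which held for 1 of the 44 genes and for 6.93% of all genes tested. Its log2 fold change was -0.59 ± 0.20 (SE), with an adjusted p of 0.195 (limma), and it passed in 2 of 23 alternative fits. Without si-NT replicate 2 the log2 fold change of TK1 was -0.71 (adjusted p = 0.331, limma). PCNA (GRCh37 chr20:5095599-5107272, minus strand), the sliding clamp, shows what the si-NT pair did to most other genes. It was at 200.67 and 112.6 TPM in si-NT and at 138.71, 97.8, 145.51 and 135.88 TPM in the depleted libraries, which lay between or below the si-NT values. RRM2, the small subunit of ribonucleotide reductase, was at 88.56 and 45.57 TPM in si-NT and between 48.5 and 66.97 TPM in depleted cells. POLE, the catalytic subunit of polymerase epsilon, was the 1 gene with all 4 depleted libraries (20.68 to 24 TPM) above both si-NT libraries (17.63 and 19.8 TPM), which held for 16.3% of all genes tested. Its log2 fold change of 0.21 ± 0.13 did not pass the test (adjusted p = 0.497, limma), and without si-NT replicate 2 it was 0.13.

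At 144 h, 31 of the 44 genes were down-regulated (70.5%), where 10.8% of all genes tested were called lower, and 0 were up-regulated, where 13.6% were called higher (limma, adjusted p under 0.05). The median log2 fold change was -0.71, beside 0.03 over all genes tested, and 43 of the 44 genes had a negative one. In 40 of the 44 genes every depleted value was lower than either si-NT value, which held for 22.5% of all genes. No gene fell by more than 1.5 on the log2 scale, a limit that 0.404% of all genes passed. RNA from bulk cells cannot tell fewer cells in S phase from less RNA of these genes in each cell. Cycling cell markers moved with the 44 genes: MKI67, TOP2A, CCNA2 and CCNB1 were called lower, with log2 fold changes between -1.05 and -0.92, and CDK1 was not (-0.08). The 5 markers summed to 709 and 836 TPM in si-NT and to between 481 and 615 TPM in depleted cells, and their part in the result was not tested.

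The count rests on both si-NT libraries of 144 h. Without si-NT replicate 1 it was 3 genes (RFC3, RRM1 and TK1), where 4.21% of all genes were called lower, and without si-NT replicate 2 it was 1 gene (TK1), where 2.44% were. Neither count stands clear of its background, while the median log2 fold changes were -0.76 and -0.66. Without the siRNA number 3 library of replicate 2 of 144 h, 19 genes were called (8.81% of all genes), and without the siRNA number 2 library of replicate 1 the count was 16 (8.9% of all genes). TK1 alone was called in all 12 fits that leave out a library, with log2 fold changes from -1.42 to -1.12. With all 4 si-NT libraries taken as 1 group, 21 genes were called lower (13.6% of all genes tested), 20 of them among the 31.

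**Figure D2:**
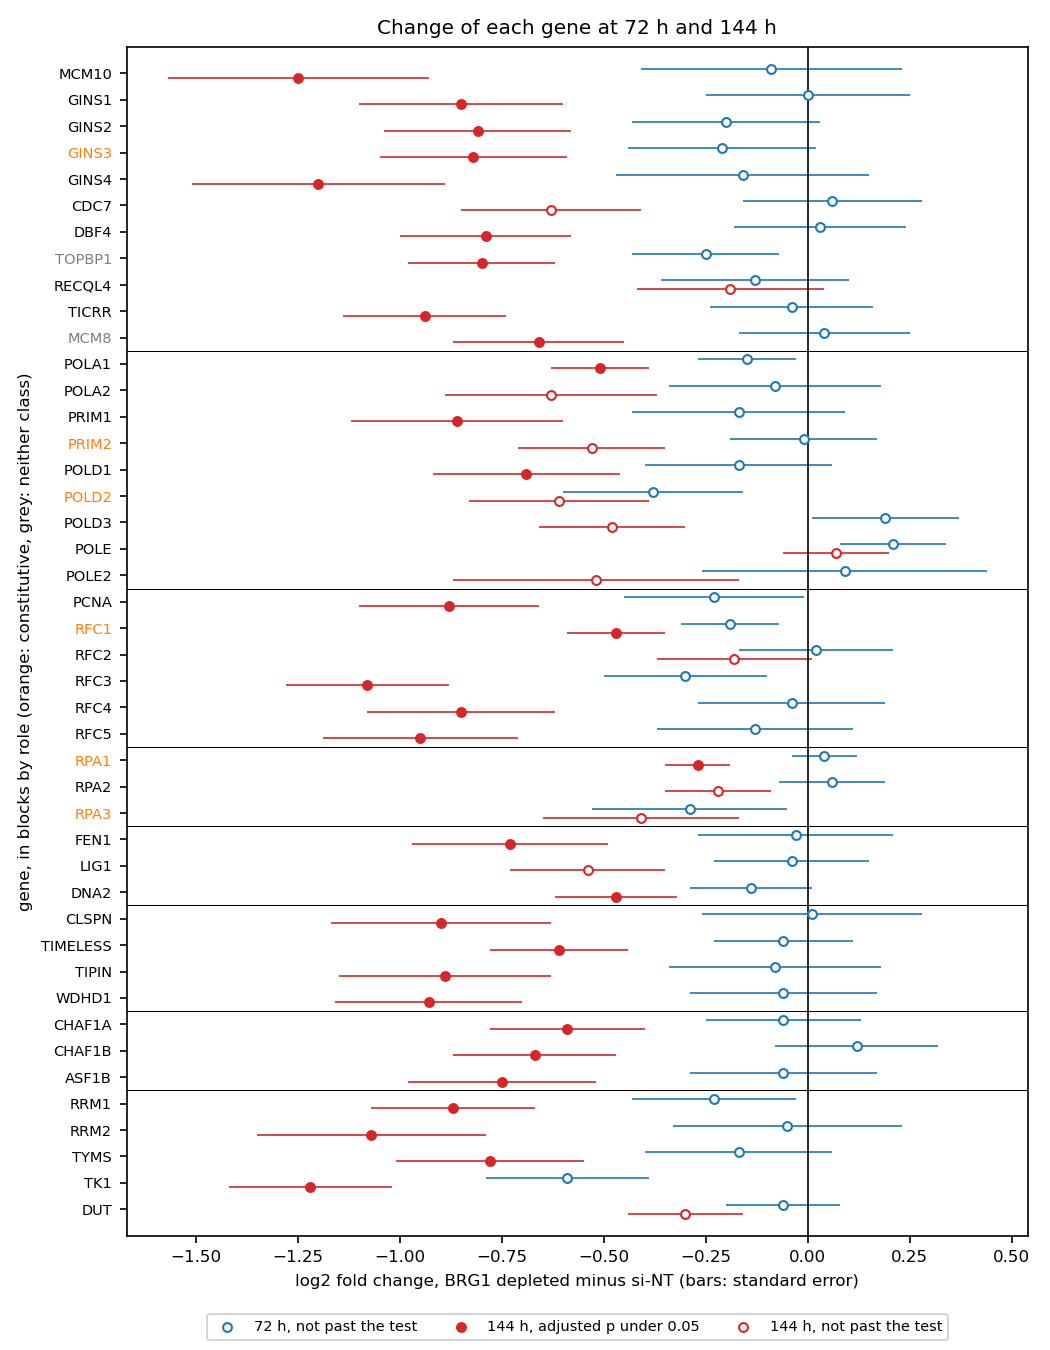
Log2 fold change of each of the 44 genes in BRG1 depleted against si-NT cells at 72 h (blue) and 144 h (red), with standard errors as bars and filled points for an adjusted p under 0.05. The red points lie left of 0 for 43 genes and 31 of them are filled, whereas no blue point is filled.

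Among the genes grouped here under origin firing, MCM8 included, 9 of 11 fell at 144 h, with a median log2 fold change of -0.81. MCM10 (GRCh37 chr10:13203558-13253110, plus strand), which helps to activate the helicase, fell most: it was at 16.61 and 19.19 TPM in si-NT and at 5.98 and 10.29 TPM with siRNA number 2 and 7.9 and 4.66 TPM with siRNA number 3. Its depleted mean was 7.21 ± 2.45 TPM (SD, n = 4), 40.3% of the si-NT mean of 17.9 ± 1.82 TPM (SD, n = 2), and the groups did not overlap. Its log2 fold change was -1.25 ± 0.32, with an adjusted p of 0.0167 (limma). GINS4, GINS1, GINS3 and GINS2, the subunits of the GINS complex, fell by 1.2, 0.85, 0.82 and 0.81 on the log2 scale. GINS2 was at 13.35 and 15.27 TPM in si-NT and at 7.01, 10.3, 7.63 and 6.31 TPM in depleted cells. GINS3 was at 9.62 and 11.74 TPM in si-NT and at 5.18, 6.94, 6.66 and 4.08 TPM, and in neither gene did the groups overlap. TICRR, which carries the signal of cyclin-dependent kinase to the origin, fell by 0.94, its partner TOPBP1 by 0.80, DBF4 by 0.79 and the MCM paralogue MCM8 by 0.66. CDC7 had a log2 fold change of -0.63 that did not pass the test (adjusted p = 0.0586). The helicase RECQL4 changed least: si-NT values of 31.9 and 27.93 TPM lay within the depleted range of 17.8 to 33.53 TPM.

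Of the polymerase genes 3 of 9 fell, with a median log2 fold change of -0.53. PRIM1, the catalytic subunit of primase, was at 32.42 and 35.29 TPM in si-NT and at 17.81, 22.03, 21.5 and 12.74 TPM in depleted cells. It fell by 0.86 (SE 0.26) on the log2 scale, with an adjusted p of 0.0333 (limma), and the groups did not overlap. POLD1, the catalytic subunit of polymerase delta, fell by 0.69, and POLA1, that of polymerase alpha, by 0.51. PRIM2 (-0.53), POLA2 (-0.63), POLD2 (-0.61), POLD3 (-0.48) and POLE2 (-0.52) had negative log2 fold changes that did not pass, although in each of them every depleted library was below both si-NT libraries. PRIM2 was at 10.75 and 12.39 TPM in si-NT and at 7.17, 9.48, 7.69 and 6.64 TPM in depleted cells. POLE2 was at 13.78 and 15.16 TPM in si-NT and at 8.34, 13.76, 8.95 and 8.85 TPM, so that 1 depleted library all but reached si-NT. POLD2 passed with each siRNA taken alone, as given below. POLE was at 19.85 and 19.3 TPM in si-NT and at 18.5, 21.14, 18.27 and 25.29 TPM in depleted cells. The POLE groups overlapped, and its log2 fold change of 0.07 ± 0.13 (adjusted p = 0.725, limma) was the highest of the 44.

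In the clamp and clamp loader 5 of 6 genes fell. PCNA was at 195.35 and 222.43 TPM in si-NT and at 102.66, 128.05, 123.14 and 100.88 TPM in depleted cells. The si-NT mean was 209 ± 19.1 TPM (SD, n = 2) and the depleted mean 114 ± 13.9 TPM (SD, n = 4), and PCNA had a log2 fold change of -0.88 ± 0.22 with an adjusted p of 0.0133 (limma). The small clamp loader subunits RFC3, RFC5 and RFC4 fell by 1.08, 0.95 and 0.85. RFC4 was at 70.45 and 71.74 TPM in si-NT and at 33.33, 43.1, 45.67 and 35.49 TPM in depleted cells. RFC3 (GRCh37 chr13:34392206-34540695, plus strand) was at 32.84 and 36.05 TPM in si-NT and at 15.01, 19.26, 18.08 and 11.71 TPM in depleted cells, with no overlap. The large subunit RFC1 fell less, by 0.47 (SE 0.12, adjusted p = 0.0175, limma), from 45.4 and 38.8 TPM to 30.86, 32.34, 29.47 and 27.41 TPM. RFC2 did not follow the other small subunits, with 27.46 and 30.35 TPM in si-NT, 20.32, 27.39, 29.31 and 25.67 TPM in depleted cells, overlapping groups and a log2 fold change of -0.18 ± 0.19 (SE).

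The genes of RPA, which coats single-stranded DNA, changed little. RPA1 was at 89.6 and 93.95 TPM in si-NT and at 75, 79.07, 78.83 and 71.11 TPM in depleted cells. It fell by 0.27 (SE 0.08, adjusted p = 0.0264, limma), the smallest fall among the 31 genes called. RPA2 (-0.22) and RPA3 (-0.41) did not pass. RPA3 was at 86.38 and 98.77 TPM in si-NT and at 62.18, 79.77, 67.06 and 70.03 TPM in depleted cells, and RPA2 at 62.31 and 70.78 TPM against 50.8 to 64.07 TPM, so the groups overlapped for RPA2 and not for RPA3.

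Okazaki fragments are trimmed by FEN1 and DNA2 and joined by LIG1. FEN1 fell by 0.73 on the log2 scale, from 75.86 and 85.81 TPM to 46.45, 61.86, 48.51 and 39.33 TPM, and DNA2 by 0.47, from 11.41 and 11.24 TPM to 8.25, 9.47, 6.98 and 7.17 TPM. LIG1 (-0.54) did not pass the test (adjusted p = 0.0584, limma). All 4 fork stability genes fell: WDHD1, which ties polymerase alpha to the helicase, by 0.93, CLSPN by 0.90, and TIPIN and its partner TIMELESS by 0.89 and 0.61. WDHD1 was at 15.72 and 17.12 TPM in si-NT and at 7.01, 9.18, 10.35 and 6.55 TPM in depleted cells. TIMELESS was at 47.79 and 47.88 TPM in si-NT and at 27.74, 37.67, 33.54 and 26.11 TPM. All 3 histone deposition genes fell, the chaperone ASF1B by 0.75 and the CAF-1 subunits CHAF1B and CHAF1A by 0.67 and 0.59. ASF1B was at 42.31 and 48.47 TPM in si-NT and at 22.06, 35.31, 28.59 and 22.27 TPM in depleted cells. CHAF1A was at 31.98 and 30.64 TPM in si-NT and at 18.55, 29.41, 18.26 and 17.28 TPM, so that 1 depleted library came close to si-NT.

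Of the nucleotide supply genes 4 of 5 fell. TK1 was at 260.09 and 296.21 TPM in si-NT and at 103.57 and 179.19 TPM with siRNA number 2 and 111.52 and 94.64 TPM with siRNA number 3. Its depleted mean of 122 ± 38.6 TPM (SD, n = 4) was 43.9% of the si-NT mean, with a log2 fold change of -1.22 ± 0.20 and the lowest adjusted p of the 44 genes, 0.00187 (limma). RRM2 and RRM1, the subunits of ribonucleotide reductase, fell by 1.07 and 0.87. RRM2 was at 92.09 and 114.49 TPM in si-NT and at 44.3, 64.45, 57.1 and 33.84 TPM in depleted cells, and RRM1 at 81.82 and 91.24 TPM against 46.95, 57.93, 52.09 and 34.14 TPM. TYMS, thymidylate synthase, fell by 0.78. DUT, the dUTPase, was at 97.79 and 100.42 TPM in si-NT and at 84.16, 90.28, 72.26 and 76.27 TPM, and its log2 fold change of -0.30 did not pass (adjusted p = 0.14, limma).

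Reads of GINS3, GINS4, MCM8, POLA2, PRIM1, PRIM2, TIPIN, TYMS and DUT may be shared with other genes, since at least 10% of their exon bases overlap another annotated gene. The overlap was largest for TYMS, at 39.9%, with ENOSF1 on the opposite strand, and for PRIM2 it includes a transcribed pseudogene copy. The overlaps come from a later gene annotation than the authors used, so some of the overlapping genes may not have been counted. The paper names a stranded library kit. The strand setting of the counting was not given in the sources used here, so how far these values are affected is uncertain.

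The growth-regulated and the constitutive genes were then set side by side. At 144 h, 26 of the 36 growth-regulated genes (72.2%) and 3 of the 6 constitutive genes (50.0%) were called lower, beside 10.8% of all genes tested. Both counts fell when either si-NT library of 144 h was left out. The median log2 fold changes were -0.77 and -0.50. The ranges overlapped widely: growth-regulated genes ran from -1.25 (MCM10) to 0.07 (POLE), constitutive genes from -0.82 (GINS3) to -0.27 (RPA1). Every depleted library of 144 h was below both si-NT libraries for all 6 constitutive genes and 32 of the 36 growth-regulated genes. That held for 22.5% of all genes tested. At 72 h the medians were -0.06 and -0.20, but they were -0.47 and -0.40 without si-NT replicate 2 and 0.28 and 0.07 without si-NT replicate 1. The difference between the classes was not tested as such, because genes are not replicates.

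Ratios of a growth-regulated gene to a partner within the same library do not depend on how libraries are scaled, and were tested for 9 pairs at each time point. The 4 depleted libraries of a time point were compared with all 4 si-NT libraries in exact permutation tests (two-sided), which cannot give a p below 0.0286, with Benjamini-Hochberg adjustment over 18 tests. Adjustment put 0.05 out of reach unless most of the 18 tests gave that smallest p, and none passed. The ratio of TK1 to the mitochondrial kinase TK2 moved most: its log2 value was 3.78 ± 0.12 (SD, n = 4) in si-NT, 3.06 ± 0.28 at 72 h (n = 4) and 2.69 ± 0.36 at 144 h (n = 4) in depleted cells. The exact p was 0.0286 at each time point, the smallest the test allows, and the adjusted p was 0.171. Without si-NT replicate 2 of 72 h the 72 h difference in the log2 ratio was -0.76, beside -0.71 with it. All depleted values (2.38 to 3.42) were below all si-NT values (3.64 to 3.89). In linear terms 13.7 TK1 transcripts per TK2 transcript went to 8.35 and 6.46. TK2, 10.7% of whose exon bases overlap another gene, was itself between 16.41 and 22.44 TPM in all 12 libraries.

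PRIM1 to PRIM2 went from a log2 ratio of 1.58 ± 0.06 in si-NT (SD, n = 4) to 1.24 ± 0.23 at 144 h (n = 4), a difference of -0.34 with an exact p of 0.0286 and an adjusted p of 0.171. In this pair too every depleted value (0.94 to 1.48) was below every si-NT value (1.51 to 1.66). At 72 h the difference was -0.14 (exact p = 0.171, adjusted p = 0.771) and the groups overlapped. At both time points the other 7 pairs had exact p-values from 0.314 to 0.943. RFC4 to RFC1 differed by -0.20 at 144 h and RRM2 to RRM1 by -0.04, and for GINS2 to GINS3 (0.13), ASF1B to ASF1A (0.11), POLE2 to POLE3 (0.25), RPA2 to RPA1 (0.03) and POLD1 to POLD2 (-0.01) the difference was close to 0 or positive. The si-NT spread was wide in several of these, with a SD of 0.46 for POLE2 to POLE3 and 0.40 for RFC4 to RFC1, so a change of that size could not have been told from the spread. The partner ASF1A was between 14.24 and 27.38 TPM over the 12 libraries and POLE3 between 43.65 and 97.48 TPM, and both were called lower at 144 h (-0.68 and -0.74).

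**Figure D3:**
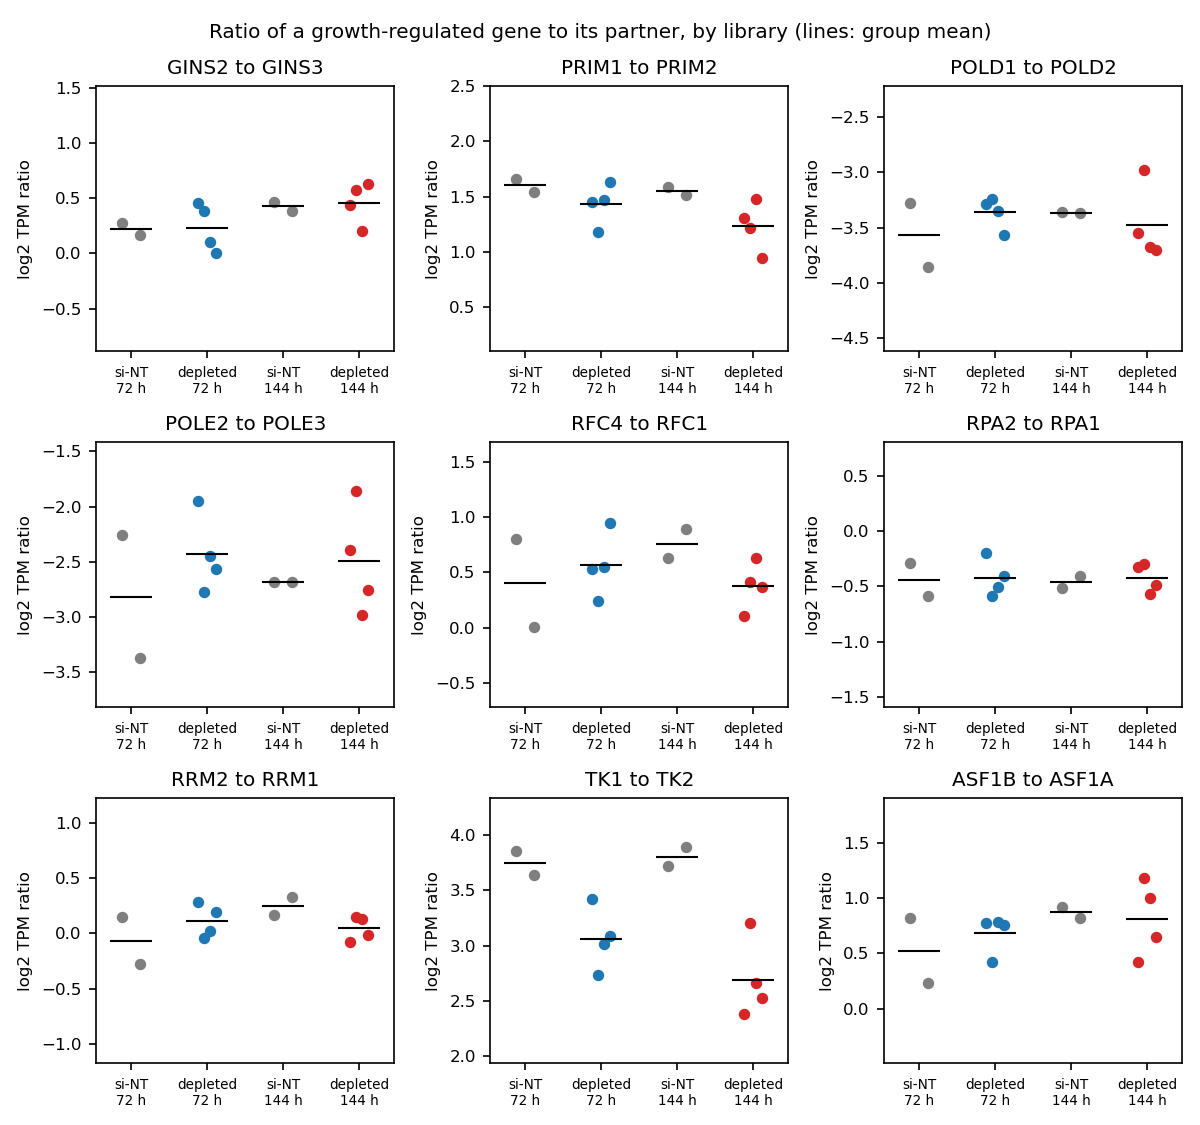
Log2 TPM ratio of 9 gene pairs in each library, with si-NT in grey, depleted cells at 72 h in blue and at 144 h in red, and group means as lines; every panel spans the same 2.4 log2 units. TK1 to TK2 is lower in all 8 depleted libraries than in the 4 si-NT libraries, and the other panels overlap between si-NT and at least 1 depleted group.

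The next question was whether the change grew with time. For all 44 genes the change at 144 h was more negative than that at 72 h, with a median difference of -0.62, but 0 genes passed the interaction test (limma), where 3 of all genes tested did (0.0184%). At an unadjusted p under 0.05 there were 20. Without si-NT replicate 2 of 72 h the median difference was -0.27, and 0 genes were called. The si-NT libraries were higher at 144 h than at 72 h for all 44 genes, with a median of 0.38, and 0 genes were called (0% of all genes, limma), with 5 at an unadjusted p under 0.05. Without si-NT replicate 2 of 72 h that median was 0.05 and 14 genes were negative. Within depleted cells, a comparison added after the data were seen, 41 of the 44 genes had a negative log2 difference between 144 h and 72 h with a median of -0.22. No gene was called there, where 1.68% of all genes were called lower at 144 h, and 6 genes had an unadjusted p under 0.05. The unadjusted counts of these comparisons have no share of all genes beside them, so they cannot be set against a background.

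Genes were called lower with both siRNAs at 144 h. Against si-NT, in a fit with 6 groups, siRNA number 2 gave a median log2 fold change of -0.65 with 10 genes called lower (7.67% of all genes), and siRNA number 3 gave -0.79 with 26 called lower (10.4% of all genes). Compared directly, 1 of the 44 genes differed between the siRNAs at 144 h, where 0.331% of all genes did, and 0 differed at 72 h, where 0.141% did.

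The gene that differed was POLD2 (GRCh37 chr7:44154230-44163957, minus strand), the regulatory subunit of polymerase delta and, by mean TPM, the highest of the 44 in si-NT cells. It was at 349.28 and 308.95 TPM in si-NT at 72 h and at 351.05 and 361.37 TPM at 144 h. With siRNA number 2 it was at 213.6 and 202.85 TPM at 72 h and at 178.36 and 204.8 TPM at 144 h, whereas with siRNA number 3 it was at 310.85 and 303.75 TPM and then at 285.73 and 284.63 TPM. The siRNA groups did not overlap at either time. Number 3 was above number 2 by 0.57 ± 0.09 on the log2 scale at 144 h (adjusted p = 0.0484, limma) and by 0.56 ± 0.09 at 72 h (adjusted p = 0.0867). The 144 h call was close to the threshold and was lost in 18 of 20 other fits. In 17 of these the difference stayed between 0.48 and 0.69, and under scaling to the spike-ins it was 0.11. Against si-NT, POLD2 was the 1 gene of the 44 called lower with siRNA number 2 at 72 h (-0.66, adjusted p = 0.0157, limma), where 0.63% of all genes were, and none was called lower with number 3, where 0.226% were. At 144 h it was called lower with number 2 (-0.89, adjusted p = 0.000562) and with number 3 (-0.32, adjusted p = 0.0406). POLD1, its catalytic partner, did not show the same split, with 15.28 and 25.97 TPM under number 2 and 22.3 and 21.96 TPM under number 3 at 144 h.

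**Figure D4:**
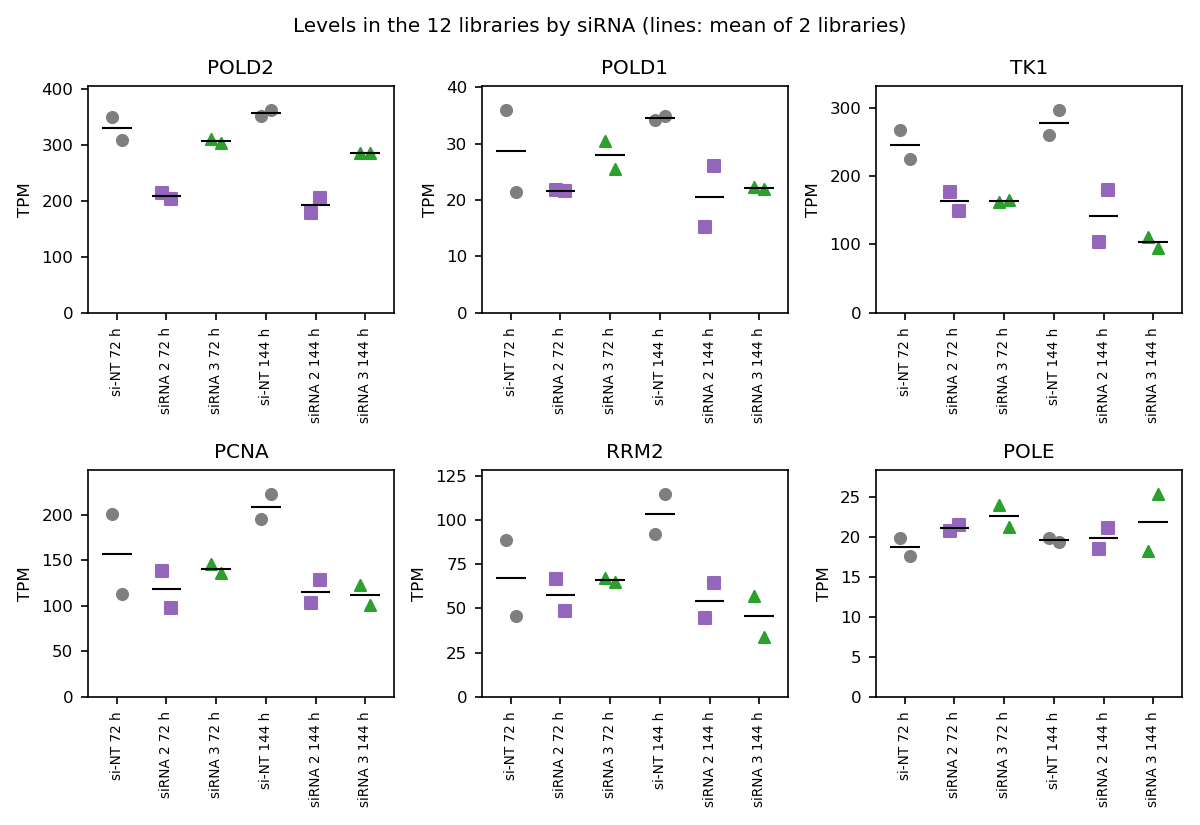
TPM of POLD2, POLD1, TK1, PCNA, RRM2 and POLE in the 12 libraries by siRNA and time point, with the mean of each 2 libraries as a line and the axis starting at 0. POLD2 is between 178.36 and 213.6 TPM with siRNA number 2 and between 284.63 and 310.85 TPM with siRNA number 3, while TK1 is below si-NT with both.

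Another 38 fork and nucleotide genes were listed beside the 44, of which 37 were found, and these served to see how far the pattern reached. At 144 h 17 of the 37 (45.9%) were called lower, where 10.8% of all genes tested were, and 0 higher, where 13.6% were. Their median log2 fold change was -0.41. The count of 17 fell when either si-NT library of 144 h was left out. The lowest were DSCC1 (-1.19), a subunit of the alternative clamp loader for cohesion, DTL (-1.16), which marks proteins on PCNA for destruction, and PCLAF (-0.97), a PCNA partner. Among the called genes the changes nearest to 0 were those of SUPT16H (-0.34), a subunit of the histone chaperone FACT, SHMT1 (-0.45), an enzyme of folate metabolism, and MCMBP (-0.57), which binds MCM proteins. The accessory polymerase subunits POLE4 and POLD4 had log2 fold changes of 0.12 and 0.30, and the ribonucleotide reductase paralogue RRM2B one of 0.33, none of which passed the test.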

How the data were processed

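RNA-seq values of 12 libraries of LNCaP cells were used. As the methods and labels describe, the authors trimmed reads with Trim Galore and aligned them to hg19 (GRCh37) with STAR 2.4.0j. They counted reads into GENCODE genes with featureCounts and deposited TPM, the unit of every value used here. ERCC spike-ins were added to the RNA and make up 0.805% to 1.966% of the TPM of a library. The paper states that its read counts were normalised to these spike-ins. The main fit here did not scale to them, and ERCC scaling is given as an alternative. TPM keeps no depth, so no count model, counting error or interval from depth is given, and the authors' edgeR test could not be run.

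TPM was taken to log2 after adding 1, and a gene entered the test where 2 or more libraries held 1 TPM or more, using limma 3.58.1 (lmFit, eBayes with a trend) in R 4.3.3, in 4 groups sharing 1 estimate of the spread (8 residual and 3.53 prior degrees of freedom), or in 6 groups for the siRNAs. Adjusted p-values are Benjamini-Hochberg over all 16337 genes. The procedure was checked on simulated data. Fold changes are on the log2(TPM + 1) scale, which understates those of low genes. Alternatives changed the pseudocount, the filter, the scaling (ERCC, median-of-ratios, quantile), the replicate block, the trend and the libraries in the fit, and left out each library in turn. Subunit ratios were compared by exact permutation tests in SciPy 1.17.1. Groups come from the sample titles, and table columns were matched to them by name. The main fit did not pair libraries by replicate number. Correlations of deviations between arms ran from -0.229 to 0.3, the highest between si-NT and siRNA number 2 at 72 h.

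The genes, their classes and lists were chosen with earlier results of these data known. Values in each 144 h library are given for the genes of the 9 pairs and for the largest and smallest change in each role. Exceptions are TK2, ASF1A and POLE3, given as ranges over the 12 libraries, and RPA2 and RECQL4, given as ranges in depleted cells. For POLD1 only the depleted libraries are given. Values at 72 h are given for some genes. Of the other pathway genes, log2 fold changes are given for the 3 lowest and 3 highest called; POLE4, POLD4 and RRM2B were named after their values were seen. Symbols and exon overlaps come from GENCODE release 44 lifted to GRCh37, not the release the authors used. Promoter windows are from RefSeq.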

Additional observations from a re-analysis of the deposited data

Results flagged for a closer look

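POLD2 differed between the siRNAs at 144 h, with siRNA number 3 above number 2 by 0.57 on the log2 scale (adjusted p = 0.0484, limma).

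In the 88 groups of 4 depleted libraries (44 genes at 2 time points), 10 had a library far from the other 3 by Dixon's criterion, which divides the gap to the nearest library by the range. Chance alone gives about 1 in 20 such groups, and genes of a library are not independent. The siRNA number 2 library of replicate 2 at 72 h was the low one for GINS1 (15.5 TPM, gap share 0.863), PRIM2 (7.5 TPM, 0.86), POLE2 (6.99 TPM, 0.844), RPA3 (46.23 TPM, 0.911), CHAF1B (9.31 TPM, 0.884) and RRM2 (48.5 TPM, 0.892). The replicate 1 library of the same siRNA and time was low for RPA1 (76.39 TPM, 0.872). At 144 h the siRNA number 2 library of replicate 2 was high for POLE2 (13.76 TPM, 0.887) and CHAF1A (29.41 TPM, 0.895), and the siRNA number 3 library of replicate 2 was low for DBF4 (14.07 TPM, 0.865).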

How the results depend on the processing

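The median log2 fold change of the 44 genes at 144 h stayed negative under every alternative, but counts of called genes moved. Genes called lower at 144 h numbered 14 with no filter (4.75% of all genes in that fit) and 11 with ERCC scaling (3.76%). In the main fit they numbered 5 at an adjusted p under 0.01 (share of all genes not given) and 0 with a log2 change beyond 1.5 (0.404% of all genes). For growth-regulated genes these were 11, 11, 4 and 0, and 17 with si-NT of both time points combined. Of the 14 S phase markers among the 44 genes, 11 were called lower (78.6%), beside 72.2% of the 36 growth-regulated genes. For constitutive genes ERCC scaling gave 0, and the stricter limits 0 and 0. For the other pathway genes the counts were 10, 7, 9 and 0. With si-NT of both time points combined 1 gene (TK1) was lower at 72 h, where 2.1% of all genes were called lower. ERCC scaling moved the median of all genes from 0.06 to -0.11 at 72 h and from 0.03 to -0.31 at 144 h, and the genes then lay at -1.10. The number differing between siRNAs at 144 h went from 1 to 0 with the replicate block, without the trend, with a pseudocount of 0.1, with ERCC scaling, with no filter and with median-of-ratios size factors. The replicate block gave 30 genes lower at 144 h, of which 28 were among the 31.

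Leaving out each library, the counts ran from 1 to 36 (44 genes lower at 144 h), 1 to 30 (growth-regulated), 0 to 4 (constitutive), 4 to 17 (other pathway), 0 to 1 (lower at 72 h), 0 to 1 (depleted 144 h below 72 h) and 0 to 0 (siRNAs at 144 h). PCNA at 72 h ran from -0.64 to 0.18 and POLE at 144 h from -0.02 to 0.13. Ratio differences ran, at 72 h, from -0.17 to 0.07 (ASF1B to ASF1A), -0.03 to 0.17 (POLD1 to POLD2), -0.21 to 0.09 (RFC4 to RFC1), -0.05 to 0.08 (RPA2 to RPA1) and -0.1 to 0.1 (RRM2 to RRM1), and at 144 h from -0.04 to 0.25 (ASF1B to ASF1A), -0.17 to 0.06 (POLD1 to POLD2), -0.01 to 0.09 (RPA2 to RPA1) and -0.17 to 0.04 (RRM2 to RRM1). POLE at 144 h was -0.31 with ERCC scaling and RFC2 0.06 with si-NT combined. With si-NT of the same time point only, GINS2 to GINS3 (0.01), RFC4 to RFC1 (0.16) and ASF1B to ASF1A (0.16) at 72 h and ASF1B to ASF1A at 144 h (-0.06) turned sign, as did POLD1 to POLD2 at 144 h (0.01) with a pseudocount of 1. These ratio tests cannot pass the threshold with a library left out (smallest p 0.0571) or with 2 si-NT libraries (0.133). The cause of these shifts was not tested. TPM gives no depth, so what depth limits is unknown.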
